A study of Homo sapiens with 4 samples.

Results

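Dense clusters of narrow CDK8 regions were taken from chromatin immunoprecipitation and sequencing (ChIP-seq) of CDK8 in HCT116, a human line of colorectal carcinoma origin. Peaks of the 3 CDK8 peak lists that overlapped or touched were merged into regions, and only regions with a peak in every list were kept. Such regions were linked where 10 kb or less lay between neighbours, and groups of 4 or more on chromosomes 1 to 22 and X were called clusters. The 705 clustered regions of 2000 bp or less are described here, out of 28150 regions in all and 9293 that all 3 lists hold on these chromosomes (7.59%, Wilson 95% interval 7.07 to 8.14). They lay in 155 clusters, which also held 74 broader regions. The number of clusters depended on the lists required. Without hypoxia library 2, the shortest list, the same rule gave 363 clusters and 1975 narrow regions. Without hypoxia library 1 it gave 210 and 1003.

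The cells were kept in normoxia (1 library) or in 1% oxygen for 24 h (2 libraries, replicates 1 and 2 of the labels, called hypoxia library 1 and 2 in the text), and the same lot of a commercial CDK8 antibody was used for each. The labels do not say that the hypoxia libraries came from separate cultures, and normoxia has no replicate. An input library was sequenced too and is not analysed here. The normoxia, hypoxia library 1 and hypoxia library 2 lists held 19862, 21993 and 14256 peaks, and hypoxia library 1 stood apart with 6370 regions that no other list held, 122 peaks on chromosome Y where the others had 0, and peaks down to 181 bp where the others stopped at 226 and 225 bp. Read depth is unknown, so a peak missing from a list may only have missed the calling threshold. The rule used position, width and presence in the 3 lists, so cluster sizes, widths and gaps are descriptions.

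CDK8 is a cyclin-dependent kinase that joins cyclin C, MED12 and MED13 in the kinase module of Mediator. Mediator carries signals from transcription factors at enhancers to RNA polymerase II at promoters, and the module binds it reversibly. Stretches of DNA where many Mediator-bound elements lie close together are known near strongly transcribed genes that define a cell type, and CDK8 is known as a coactivator of genes induced in low oxygen. Neither gene annotation nor sequence of hg19, the build of the lists, was used, so regions are given by position only and are not assigned to genes, promoters, exons or introns.

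Most clusters were small. There were 82 clusters of 4 regions, 29 of 5, 22 of 6 and 22 of 7 or more. The cluster with the most regions lay on chromosome 7 (130563671 to 130603404), where 14 regions, 12 of them narrow, lay within 39734 bp and covered 23073 bp of it (58.1%). Next were a cluster of 10 regions on chromosome 10 (114276395 to 114309148), all narrow, and another of 10 on chromosome 11 (118779780 to 118801212), of which 9 were narrow. A cluster of 9 lay on chromosome 19 (12885733 to 12917677). There were 5 clusters of 8. A pair of them was again on chromosome 19 (13944013 to 13973338 and 1239916 to 1276326). The cluster at 7738059 to 7760847 of chromosome 17 was the only one of the 5 with all regions narrow. The remaining ones were on chromosome 1 (27316917 to 27339458) and, with 6 narrow regions, chromosome 6 (34191734 to 34217256). Of the 13 clusters of 7 regions, 5 were all narrow, and the one on chromosome 6 (151357168 to 151390549) had the highest median of its regions' lowest percentiles, 90.1.

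**Figure D1:**
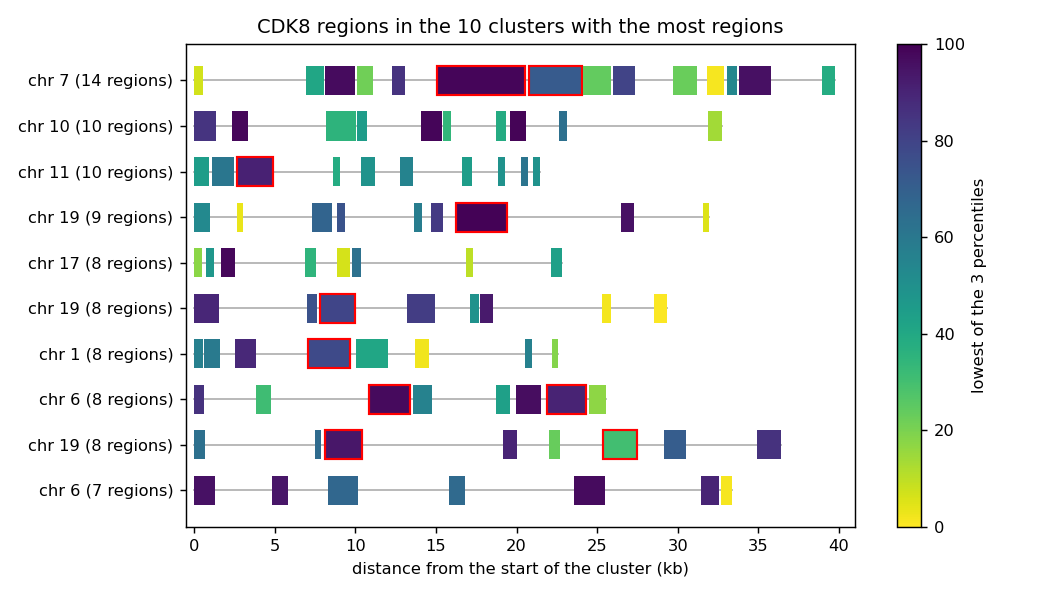
Positions of CDK8 regions in the 10 clusters with the most regions, ties broken by the number of narrow regions and then by the median lowest percentile. The x axis is the distance from the start of each cluster in kb, each block is a region drawn to its width, its colour is the lowest of its 3 percentiles, and a red outline marks regions over 2000 bp. The chromosome 7 cluster holds 14 regions in 39.7 kb, and blocks of high and low percentile stand side by side in the clusters.

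Clusters spanned a median of 16124 bp, with a range of 3499 to 39734 bp, and their regions covered a median of 29.1% of that span. The 624 gaps between neighbours had a median of 2020 bp, and 225 were under 1000 bp. A clustered narrow region was 713 bp wide in the median (quartiles 512 and 1048), against 544 bp (426 and 727) for the 8389 other narrow regions in all 3 lists. In 564 of the 705 (80.0%) each list held a single peak, against 89.3% of the other narrow regions. At the width limit, the widest retained regions measured 1947, 1956 and 1974 bp and the narrowest excluded ones 2010, 2013 and 2031 bp. The widest gap inside a cluster was 9994 bp, and the nearest region left out before a cluster lay 10096 bp away. Just under the limit of 4 there were 215 groups of 3 regions, whose narrow regions had median percentiles of 75.2, 74.8 and 66.9 in normoxia, hypoxia library 1 and hypoxia library 2.

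Clusters were unevenly spread over chromosomes. Chromosome 11 had 17 clusters with 83 narrow regions, 15.7% (12.9 to 19.1) of its 527 regions in all 3 lists. Chromosome 19 followed with 14 clusters and 71 narrow regions (12.03%, 9.65 to 14.9). The share was 12.1% on chromosome X (16 of 132) and 11.5% on chromosome 22 (27 of 234), and at the other end 1.54% on chromosome 15 (4 of 260). Chromosomes 18 and 21 had 0 of 149 and 0 of 88, which allows shares of up to 2.01% and 3.41% by the limit of 3 counts that a count of 0 allows (Wilson upper bounds 2.51% and 4.18%). Regions of 1 cluster are not independent, so these intervals are too narrow. A fixed linking distance joins more regions where they lie denser. Regions per Mb were not compared between chromosomes, and the part of density in this spread was not tested.

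Some clusters lay next to each other. In 14 chains of clusters no more than 100 kb apart, 32 of the 155 clusters were joined. The longest chain, on chromosome 1 (8064814 to 8272541), held 4 clusters with 20 regions in 208 kb. Chromosome 11 had 3 clusters with 20 regions in 158 kb (65185745 to 65343779), and chromosome 20 had 3 with 16 regions in 163 kb (30148563 to 30311874). On chromosome 7 the largest cluster was followed, after 75481 bp, by a cluster of 4 regions.

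Scores rank the peaks of a list, and a percentile of 100 marks the best. Clustered narrow regions had median percentiles of 81.3 in normoxia (quartiles 57.9 and 93.1), 80.8 in hypoxia library 1 (59.0 and 93.8) and 70.3 in hypoxia library 2 (42.8 and 88.8). The other narrow regions had medians of 69.9, 69.5 and 60.2, and the 74 broad regions of the same clusters 97.5, 97.3 and 95.8. The lists differ in length, so percentiles of different lists are not on the same scale, and the lower value in hypoxia library 2, the shortest list, is no measure of binding. The difference between clustered and other regions moved with width. Up to 500 bp the normoxia medians were 59.5 and 60.1, with 68.5 and 66.9 in hypoxia library 1 and 51.5 and 52.4 in hypoxia library 2, for clustered and other regions. Over 500 to 1000 bp they were 81.7 and 73.9, 81.6 and 69.6, and 72.7 and 64.1. Over 1000 to 2000 bp they were 90.5 and 86.2, 87.6 and 80.8, and 84.7 and 79.8. The narrowest clustered regions thus ranked within 2 points of the other regions of their width in each library, and the higher ranks were those of regions over 500 bp.

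**Figure D2:**
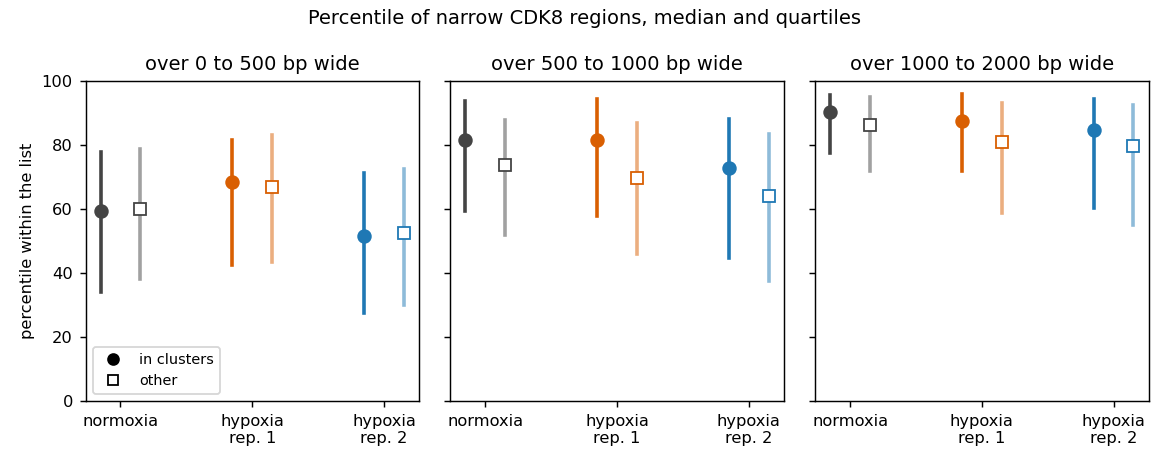
Percentile within each list (y axis) of narrow CDK8 regions by width band and library. Filled circles are medians of the 705 clustered regions, open squares those of the 8389 other narrow regions, and lines join the quartiles. The symbols nearly coincide up to 500 bp, and the circles lie above the squares in the wider bands.

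Strong and weak regions stood side by side. The best of the 705, a region of 709 bp on chromosome 17 (79367432 to 79368140), reached percentile 99.9 in normoxia, 99.996 in the first and 99.88 in the second hypoxia list. It was followed by a region on chromosome 8 (94885779 to 94886943) at 99.85, 99.8 and 99.8. The third lay on chromosome 2 (219260662 to 219261416) at 99.89, 99.7 and 99.8. The other 5 of the 8 best had no percentile under 99.3. Chromosome 6 held one of 1185 bp (159151169 to 159152353) and chromosome 7 one of 751 bp (5465011 to 5465761). Chromosome 19 held one of 476 bp (954966 to 955441) and chromosome 17 one of 869 bp (80230919 to 80231787). The last, 1662 bp wide, was again from chromosome 8 (94892296 to 94893957). It alone among the 8 was not a single peak in every list. Both chromosome 8 regions belong to 1 cluster of 4 regions. In all, 107 of the 705 (15.2%, 12.7 to 18.0) were above percentile 90 in every list, against 6.63% (6.12 to 7.18) of the other narrow regions. Below 50 in every list were 57 (8.09%), against 10.0%. These shares were not matched for width, and clustered regions are wider (median 713 against 544 bp). The 107 lay in 73 clusters, and in 0 of the 155 clusters were all narrow regions above 90 in every list. With 15.2% of the regions above 90, such clusters are rare in any case. The 0 is a description and does not show whether neighbours are alike. Within a cluster the lowest of the 3 percentiles ranged over a median of 66.1 points from the best to the weakest narrow region. The intraclass correlation, the share of variance that lies between clusters, was taken on ranks among the 9293 regions in all 3 lists. It was 0.0997 for normoxia ranks, 0.116 for hypoxia library 1 and 0.110 for hypoxia library 2. Most of the variance in rank thus lay between regions of the same cluster.

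In the chromosome 7 cluster of 14, the percentiles in normoxia ranged from 45.2 to 99.9, in hypoxia library 1 from 34.8 to 99.95 and in hypoxia library 2 from 1.30 to 98.5. Its widest region is one of 5475 bp (130578732 to 130584206), at 99.9, 99.95 and 98.5. A narrow region 1723 bp wide (130587819 to 130589541) stood at 82.2 in normoxia, 89.3 in hypoxia library 1 and 24.1 in hypoxia library 2. Another of 1048 bp (130595488 to 130596535) stood at 65.2, 65.4 and 1.30. Hypoxia library 2 gave the lowest percentile in 12 of the 14 regions. In the chromosome 10 cluster it did so in 8 of 10, for example 88.4, 86.3 and 35.5 at a region of 1839 bp (114284577 to 114286415), while the best region there (114295999 to 114296994) kept 99.9, 99.96 and 99.2. In the chromosome 11 cluster it did so in 3 of 10, and hypoxia library 1 had the lowest median, 58.6, against 76.3 in normoxia and 66.4 in hypoxia library 2. Over all 705 regions hypoxia library 2 was lowest in 52.5%, against 47.2% of the 9293 regions in all 3 lists. The percentiles are within lists of unlike length, so these counts do not measure binding.

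The rule for the 705 required a peak in every list, so each library lists all of them. Other clusters, for which the third list was not used, were had by leaving a library out. Clustered regions in this comparison are the narrow regions of those clusters and not the 705. Clusters were rebuilt from 2 lists with the same limits, and the share of their narrow regions that the third library listed was set beside the share of the other narrow regions of those 2 lists. With normoxia left out, it listed 93.9% (92.2 to 95.2) of 995 clustered regions and 90.9% (90.3 to 91.5) of 9159 others, a difference of 2.95 points (1.19 to 4.41). With hypoxia library 1 left out, it listed 89.6% (87.6 to 91.4) of 1003 and 82.5% (81.7 to 83.2) of 10079, a difference of 7.16 points (5.00 to 9.06). With hypoxia library 2 left out the order was the opposite: it listed 62.0% (59.9 to 64.1) of 1975 clustered regions and 68.2% (67.4 to 69.1) of 11651 others, a difference of -6.19 points (-8.51 to -3.91). Averaged within quintiles of the lower of the 2 percentiles, the differences for normoxia, hypoxia library 1 and hypoxia library 2 were 1.76, 5.17 and -10.0 points. Averaged within bands of width, a choice made after seeing the data, they were 0.536, 4.54 and -11.2 points. The normoxia difference thus nearly disappeared at matched width, and that of hypoxia library 2 grew. The intervals cover counting error only, and regions are not replicates.

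The shortfall of hypoxia library 2 was larger in larger clusters. It listed 68.5% (67.5 to 69.5) of regions that stood alone, 68.1% (65.4 to 70.7) of those in groups of 3, 65.8% (62.0 to 69.4) in clusters of 4, 61.5% (57.5 to 65.4) in clusters of 5 to 6 and 59.4% (55.9 to 62.8) in clusters of 7 or more. The corresponding ends were 81.5% and 92.3% for hypoxia library 1, and 90.5% and 95.3% for normoxia. Of the 363 clusters built without hypoxia library 2, 173 (47.7%) had 4 or more of their regions in its list. The count was 168 of 210 (80.0%) for hypoxia library 1 and 182 of 202 (90.1%) for normoxia. These are different sets of clusters. Outside clusters the shares listed were already 68.2%, 82.5% and 90.9%, in the same order. A cluster of 4 counts only if all its regions are listed, so a lower share listed anywhere lowers this count. Hypoxia library 2 has the shortest list. With equal list sizes its shares were 71.0% in clusters and 77.3% outside, a difference of -6.31 points. Depth, shearing and caller settings of the libraries were not given in the sources used here, and their part in this difference was not tested.

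**Figure D3:**
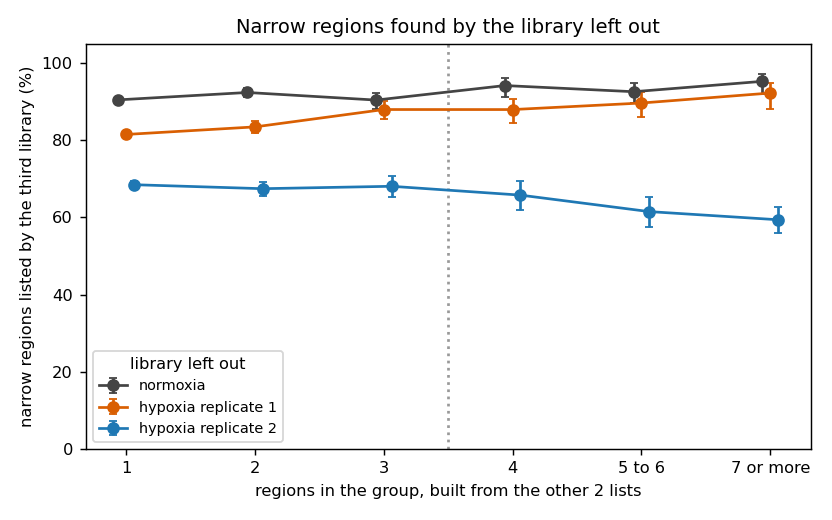
Percent of narrow regions, built from 2 lists, that the third library listed (y axis), by the number of regions in the group (x axis), with Wilson 95% intervals. The dotted line marks the limit of 4 regions. Hypoxia library 1 goes from 81.5% to 92.3% and normoxia from 90.5% to 95.3%, while hypoxia library 2 goes from 68.5% to 59.4%.

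The length that a library listed within a region was compared in the regions of all 3 lists. In the 705 regions the median listed length was 623 bp in normoxia, 519 bp in hypoxia library 1 and 473 bp in hypoxia library 2, and in the other narrow regions 467, 375 and 392 bp. Hypoxia library 2 was shorter than hypoxia library 1 in 59.6% (55.9 to 63.1) of clustered regions and in 45.8% (44.8 to 46.9) of the others. From 1000 to 2000 bp the shares were 71.4% (64.7 to 77.3) and 53.4% (49.9 to 56.9), and up to 500 bp they were 50.6% (43.0 to 58.2) and 42.9% (41.3 to 44.5). Both hypoxia libraries listed less length than normoxia in 384 of the 705 (54.5%), where the share over all 9293 regions was 56.6%, and more in 72 (10.2%), where it was 12.1%. These shares lie near the background.

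The study set hypoxia against normoxia. With 1 library against 2, an exact permutation test cannot give a p below 0.333, and no test was run. A region was called higher or lower in hypoxia where both hypoxia percentiles lay on the same side of normoxia. Both were above normoxia in 144 of the 705 (20.4%, 17.6 to 23.6), against 23.6% of all 9293 regions, and both below in 230 (32.6%, 29.3 to 36.2), against 34.7%. With percentiles taken among the 9293 shared regions, a scale chosen after the data were seen, 186 were above (26.4%, 23.3 to 29.8; all regions 30.9%) and 190 below (27.0%, 23.8 to 30.3; all regions 27.8%). On the first scale the median difference, mean of hypoxia minus normoxia, was -3.08 points, and on the common scale -0.98. It turned to 2.11 points in the clusters built without hypoxia library 2, which hold a different set of regions. The clustered regions were thus called in either direction no more often than CDK8 regions at large.

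**Figure D4:**
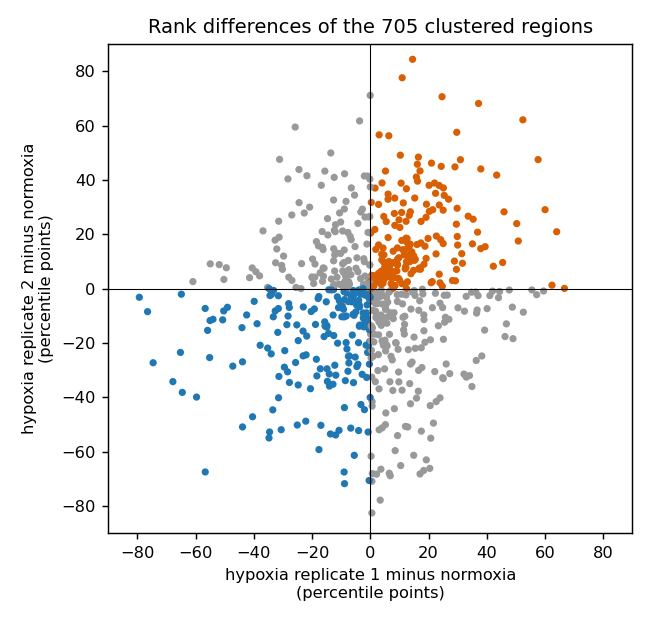
Difference from normoxia of hypoxia library 1 (x axis) and of hypoxia library 2 (y axis) for the 705 clustered regions, in points of the percentile among the 9293 shared regions. Orange points are the 186 regions above normoxia in both, blue points the 190 below in both, and grey points the rest.

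On the common scale the median size of the difference was 11.5 points between hypoxia library 1 and normoxia, 13.2 between hypoxia library 2 and normoxia and 18.1 between the hypoxia libraries. The other narrow regions had 15.2, 15.1 and 18.5 points. Spearman's rho across the 705 regions, which share libraries and neighbours, was 0.764, 0.685 and 0.529 for these pairs, and across the other 8389 narrow regions 0.592, 0.592 and 0.447. Clustered regions rank higher, near the upper end of the scale, and the part of this in their smaller differences was not tested. The hypoxia libraries differed from each other by more than either differed from normoxia, in the clusters as elsewhere. Neighbours shared a minor part of this difference: the intraclass correlation was 0.219 for hypoxia library 2 minus hypoxia library 1, against 0.111 and 0.169 for hypoxia libraries 1 and 2 minus normoxia. Most of the variance of each difference lay between regions of the same cluster.

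The regions whose hypoxia percentiles both lay farthest above normoxia were chosen by that difference. The first, 1410 bp on chromosome 3 (5025032 to 5026441), stood at percentile 14.9 in normoxia, 64.5 in hypoxia library 1 and 80.7 in hypoxia library 2. A region of 1031 bp at the end of the chromosome 6 cluster of 8 (34216226 to 34217256) stood at 17.2, 66.0 and 61.2. The third, also on chromosome 3 (98685683 to 98686315), stood at 43.6, 86.9 and 88.8. The other pair lay on chromosome 12 (53441984 to 53442659) at 22.4, 72.2 and 61.3, and on chromosome 17 (79353337 to 79353676) at 33.5, 85.6 and 71.8. The last lies in the same cluster as the best-ranked of the 705. Farthest below normoxia were regions on chromosome 7 (100812054 to 100812546) at 77.6, 33.4 and 13.5, and on chromosome 11 (69456364 to 69457189) at 91.1, 47.5 and 22.95. Chromosome 17 held a pair, 48138299 to 48138840 at 48.3, 6.06 and 0.982 and 76337715 to 76338707 at 86.1, 30.7 and 45.0. The fifth lay on chromosome 7 (27209550 to 27210070) at 86.5, 22.9 and 47.5. In each of the 10 the hypoxia values lay on 1 side of normoxia by the rule that chose them, and without a second normoxia library the spread between normoxic cultures is unknown.

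**Figure D5:**
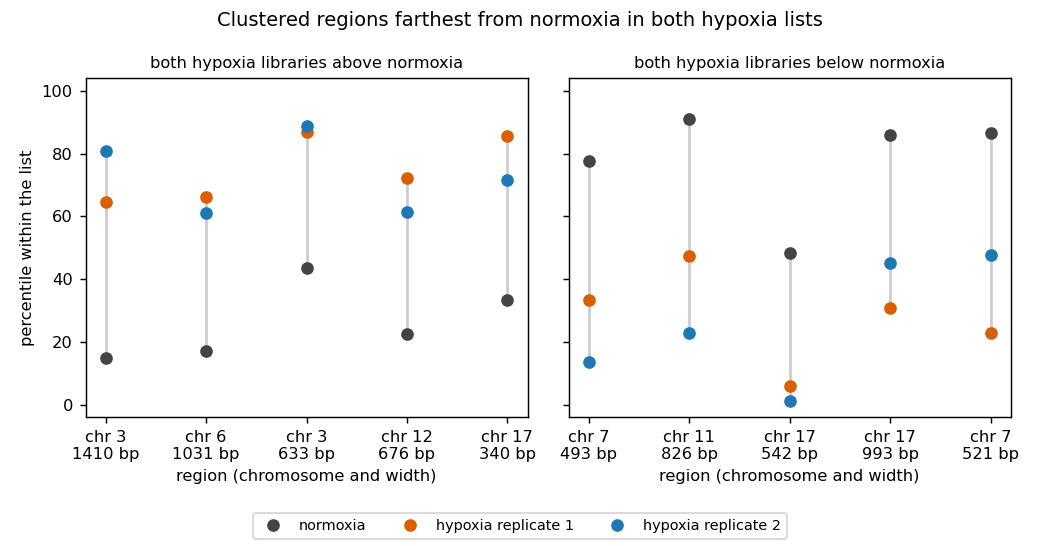
Percentile within the list (y axis) of the 5 clustered regions with both hypoxia libraries farthest above normoxia (left) and the 5 farthest below (right), named by chromosome and width. The chromosome 3 region of 1410 bp goes from 14.9 in normoxia to 64.5 and 80.7, and the chromosome 11 region of 826 bp from 91.1 to 47.5 and 22.95.

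Few clusters had all of their narrow regions called in 1 direction. Of the 705 regions 20.4% were called above and 32.6% below, so such clusters are rare by the rule. Their number therefore does not show whether neighbours moved together. Of 61 clusters with 5 or more narrow regions, 1 had all of them above normoxia in both hypoxia libraries and 0 had all of them below. That cluster lay on chromosome 3 (5019243 to 5037606). Its narrow regions stood at percentiles 23.4, 14.9, 27.1, 97.5 and 91.0 in normoxia, at 33.4, 64.5, 47.1, 99.2 and 94.4 in hypoxia library 1, and at 74.5, 80.7, 96.6, 99.5 and 94.5 in hypoxia library 2. The first 3 differed widely and the last pair by a few points. Its broad region (5019843 to 5022688) did not follow, with 93.1, 90.8 and 99.2. Hypoxia library 2 lists the 1184 bp of the region at 5026911 to 5028094 whole, where normoxia lists 265 bp and hypoxia library 1 lists 313 bp. Among smaller clusters, one on chromosome 17 (76337715 to 76356679) had all 4 regions below normoxia, at 86.1, 25.1, 87.4 and 97.7 in normoxia, 30.7, 22.5, 81.8 and 38.9 in hypoxia library 1, and 45.0, 10.6, 74.5 and 90.9 in hypoxia library 2. In 64 of the 155 clusters, at least 1 narrow region was called above and another below. The number that unrelated neighbours would give was not worked out, so this count does not show whether clusters moved together either.

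The spans of the clusters held other CDK8 regions that 1 or 2 lists lacked. There were 414 of these in 125 clusters, and 30 clusters had 0. They lay at 226 per Mb of the DNA between the clusters' regions, against 6.25 per Mb outside the clusters. The rule chose stretches rich in peaks, so this density is a description. By pattern, 134 (32.4%) were in normoxia and hypoxia library 1, against 23.8% of all such regions, and 25 (6.04%) in normoxia and hypoxia library 2, against 9.99%. Those of hypoxia library 1 alone numbered 106 (25.6%, against 33.4%), and those of normoxia alone 90 (21.7%, against 19.9%). Hypoxia library 2 alone held 43 (10.4%, against 8.20%). No intervals were worked out for these shares, and some lie near the share over all such regions. Regions that normoxia lacked and both hypoxia lists held numbered 16 (3.86%, against 4.77%), at a median lower percentile of 8.26, against 22.1 outside clusters. The most in a cluster was 11, reached by 4 clusters. Chromosome 8 held the first (94916628 to 94948800). The next were on chromosome 11 (122007724 to 122032402) and on chromosome 12 (76093518 to 76119705). The fourth, on chromosome 1 (8064814 to 8088651), has 4 regions and begins the longest chain.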

How the data were processed

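CDK8 ChIP-seq peak lists of 3 HCT116 libraries (1 normoxia, 2 hypoxia) were used, on GRCh37 (hg19). Per the submitters' processing notes, CASAVA 1.8.2, Bowtie 0.12.7, MACS2 2.0.9 and FastQC were used, without roles or parameters. The deposited lists give each peak's position and a score whose scale is not stated, so scores were used as ranks within a list. The files are marked as merged without saying what was merged. Read depth is not given in the sources used here. A percentile is the rank of a region's best peak in its list, 100 being the best. Positions are 1-based. Wilson 95% intervals cover counting error only. Python 3.11.15, numpy 2.4.6, pandas 2.3.3, scipy 1.17.1 and matplotlib 3.10.9 were used, and the scripts were tested on simulated lists.

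The members, the rule and the lists of named regions were chosen with earlier results of these data known. Named were the 10 clusters with the most regions (ties by more narrow regions, then by the higher median lowest percentile), the 8 regions with the highest lowest percentile, the 5 farthest above and below normoxia by the smaller of both gaps, clusters of 5 or more narrow regions all on 1 side, and the 3 clusters with the most regions of 1 or 2 lists (4 tied, and all are given). Other named regions were chosen after their values were seen. Alternatives changed the linking distance, cluster size, width, score limit, list size and peak joining, and left out each hypoxia library. Gene context, start sites and sequence were not analysed, since no hg19 annotation or genome was used.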

Additional observations from a re-analysis of the deposited data

How the results depend on the processing

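The size of the set followed its limits. Linking at 5 kb gave 82 clusters and 358 narrow regions (3.85% of the regions in all lists), linking at 20 kb gave 272 and 1400 (15.1%), 3 or more regions gave 370 and 1308 (14.1%), and 5 or more gave 73 and 408 (4.39%). A width limit of 1000 bp gave 5.48% and no limit 8.38%. The better-scoring 50% of each list gave 43 and 166 (3.93%), equal list sizes 6.78%, and joining peaks within 500 bp 100 and 352 (3.94%). Without 1 hypoxia library, clusters numbered 210 to 363, narrow regions 1003 to 1975 and their share 8.93% to 14.3%. The median percentile was then 65.2 to 76.7 in normoxia, 69.8 in hypoxia library 1 and 65.6 in hypoxia library 2, and the median difference of hypoxia from normoxia -4.54 to 2.11, the last without library 2, so its sign depends on that library. Calls of both hypoxia libraries could not be made there.

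The difference in the share listed by the left-out library kept its sign under each alternative run. For normoxia it was 7.41 points with the better-scoring 50%, 5.38 with equal lists and 0.536 within width bands. For hypoxia library 1 it was 13.5, 12.7 and 4.54. For hypoxia library 2 it was -2.31 with the better-scoring 50%, -10.1 with the 1000 bp limit, -10.0 within quintiles and -11.2 within width bands. The causes were not tested. With equal lists both hypoxia libraries were above normoxia in 25.6% of clustered regions (28.4% of all regions in the 3 lists) and below in 29.9% (29.96%). With ranks among shared regions the shares were 26.4% (30.9%) and 27.0% (27.8%). Ranks among shared regions and width bands were chosen after seeing the data. Distance to start sites and motif shares were not run. Depth is unknown, so absence from a list is not absence of binding. No paired analysis was possible because normoxia has 1 library, and the groups share fewer than 2 replicate numbers.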

Other observations

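Some clusters differed in 1 direction between the hypoxia libraries. These were chosen after their values were seen. On the scale of ranks among shared regions, hypoxia library 2 lay below hypoxia library 1 at every narrow region in 18 of the 131 clusters with 4 or more narrow regions, and above in 11. On chromosome 12 (65881436 to 65904961) the median percentile in the list was 86.0 in normoxia, 89.2 in hypoxia library 1 and 14.9 in hypoxia library 2. On chromosome 9 (21674520 to 21693145) it was 81.0, 93.9 and 34.9, and on chromosome 11 (64879179 to 64889953) 68.9, 78.7 and 16.8. The opposite was seen on chromosome 9 (140130944 to 140150003) at 76.7, 77.1 and 91.9, and on chromosome 19 (40926917 to 40949488) at 67.2, 75.6 and 91.8. Against normoxia, hypoxia library 1 lay above at every narrow region in 14 clusters and below in 4, and hypoxia library 2 above in 9 and below in 18. How many such clusters unrelated neighbours would give was not tested for any of these counts.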
